A study of Mus musculus with 18 samples.

Results

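The comparison described here sets whole brains of male mice labelled ERalphaKO, in which the label names estrogen receptor alpha (gene Esr1) as the targeted receptor, against whole brains of wild type males. Its members were chosen by title: 3 arrays titled as ERKOalpha MB and 3 titled as B6 MB, where the descriptions spell MB out as male brain, so 6 of the 18 arrays of the series. The other groups are wild type females, ERalphaKO females, ERbetaKO females and ERbetaKO males, with 3 arrays each, and all 6 groups share the C57BL/6 strain, an age of 8 weeks and flash freezing of the whole brain. ERbetaKO names the other classical estrogen receptor, estrogen receptor beta (gene Esr2). The labels give neither the mutant allele nor how it was made, name no treatment, and do not say whether each sample came from its own animal, so p-values measure only the spread between these samples. The descriptions of the ERalphaKO samples carry 1 common date stamp that the wild type descriptions lack, so genotype and whatever that stamp records cannot be told apart.

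Estrogen receptor alpha is a ligand-activated transcription factor that binds estrogen response elements in DNA and can also act through other DNA-bound factors. In the brain it is best known from hypothalamic and limbic neurons, where it takes part in sexual and parental behaviour and in the feedback of sex steroids on the pituitary, and male brains form estradiol locally from testosterone. Several of the genes that differed most here belong to the immediate early genes, which neurons switch on within minutes of synaptic activity or stress without new protein synthesis, and whose products then switch on later genes.

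All 6 brains carried the markers of neural tissue. Over them the signal of Snap25, a synaptic protein of neurons, ran from 12800 to 18810, that of the astrocyte gene Gfap from 1754 to 3470, and that of Mbp, a myelin protein, from 14210 to 22760. Xist, the RNA that silences an X chromosome in females, ran from 226.3 to 365.0 in these males. It was at least 3916 in the wild type and ERalphaKO females, and by its signal 18 of 18 arrays of the series matched the labelled sex. Logged signals correlated at 0.968 to 0.985 within the 2 male groups and at 0.960 to 0.974 between them. The ratio of 3′ to 5′ control probe sets, a sign of RNA quality, was 1.2 ± 0.0248 (SD, n = 3) for Actb in wild type and 1.221 ± 0.0656 in ERalphaKO males (two-sided exact permutation p = 0.7, adjusted over 3 ratios 0.9, and 0.1 is the smallest p that 3 against 3 arrays allow). That of Gapdh was 0.7547 ± 0.0113 and 0.756 ± 0.00425 (exact permutation p = 0.9). That of pyruvate carboxylase was 2.58, 2.568 and 2.51 in wild type and 2.464, 2.318 and 2.242 in ERalphaKO males, lower in the latter without overlap (exact permutation p = 0.1, adjusted 0.3), and its part in the results was not tested.

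The brains differed in the signals of some region markers, within both groups alike. Pcp2, a gene of cerebellar Purkinje cells, had signals of 2104, 10790 and 179.05 in wild type replicates 1 to 3 and of 7262.8, 6798.8 and 208.57 in ERalphaKO replicates 1 to 3. Ttr, made by the choroid plexus, was 15470, 19040 and 836.7 against 14510, 14520 and 2971. Replicate 3 of each group was thus low in both. Gh, the growth hormone gene of the pituitary, was 9308, 1110 and 5917 in wild type and 169.1, 19070 and 79.74 in ERalphaKO males, a spread that overlapped between groups. In bulk tissue fewer cells of a type and less RNA per cell cannot be told apart.

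**Figure D1:**
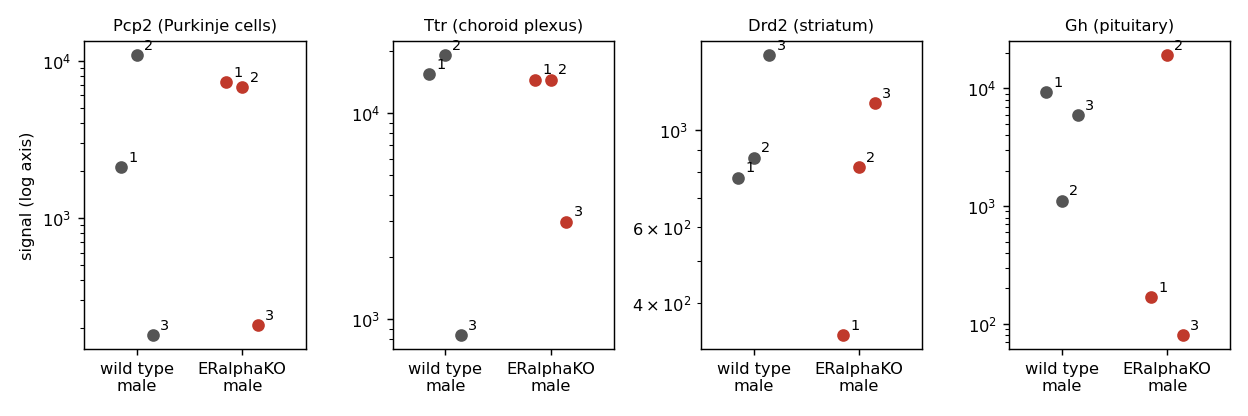
Signal of 4 region or gland markers (log axis) in the 3 wild type and 3 ERalphaKO male brains, each point an array with its replicate number. Replicate 3 of each group has the lowest Pcp2 and Ttr, and Gh ranges from 79.74 to 19070.

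The Esr1 probe set that stood for the gene in the fit did not separate the groups, while the other Esr1 probe sets did. The former read 170.7, 132.5 and 112 in wild type and 127.4, 144.7 and 86.76 in ERalphaKO males. These values overlapped and lay between the 25th percentile (63.63) and the median (195.9) of all non-control signals of the series. The log2 difference was -0.14 ± 0.18 (SE, limma adjusted p = 0.739). A second Esr1 probe set averaged 140.9 ± 67.6 in wild type and 270.9 ± 40.9 in ERalphaKO males (exact permutation p = 0.1) and the remaining one 34.94 ± 21.5 and 83.27 ± 5.92 (SD, exact permutation p = 0.1). Both lay wholly higher in the ERalphaKO-labelled brains. Where these probes sit relative to the disrupted part of the gene is not given in the sources used here, so the probe sets check nothing about the label, and the groups are called by it below. Esr2 averaged 30.96 ± 17.2 in wild type and 23.29 ± 7.49 in ERalphaKO males (SD, exact permutation p = 0.6).

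Of 13072 genes tested with limma, 102 differed between ERalphaKO and wild type males at an adjusted p of 0.05 or less, which is 0.78% of genes. These comprised 68 genes that rose (0.52%) and 34 that fell (0.26%). In none of the 102 did the range of the 3 ERalphaKO values meet that of the 3 wild type values. Among all genes 9.08% were separated in this way upwards and 14.5% downwards. An unadjusted p under 0.05 was found for 2157 genes, or 16.5%. The median of the absolute log2 differences of the called genes was 0.68, and 19 of them exceeded 2-fold, of which 16 were rises and 3 falls. The median difference of all genes was -0.04. Log2 differences are of signal plus a constant of 63.63 and understate the change of weak genes.

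**Figure D2:**
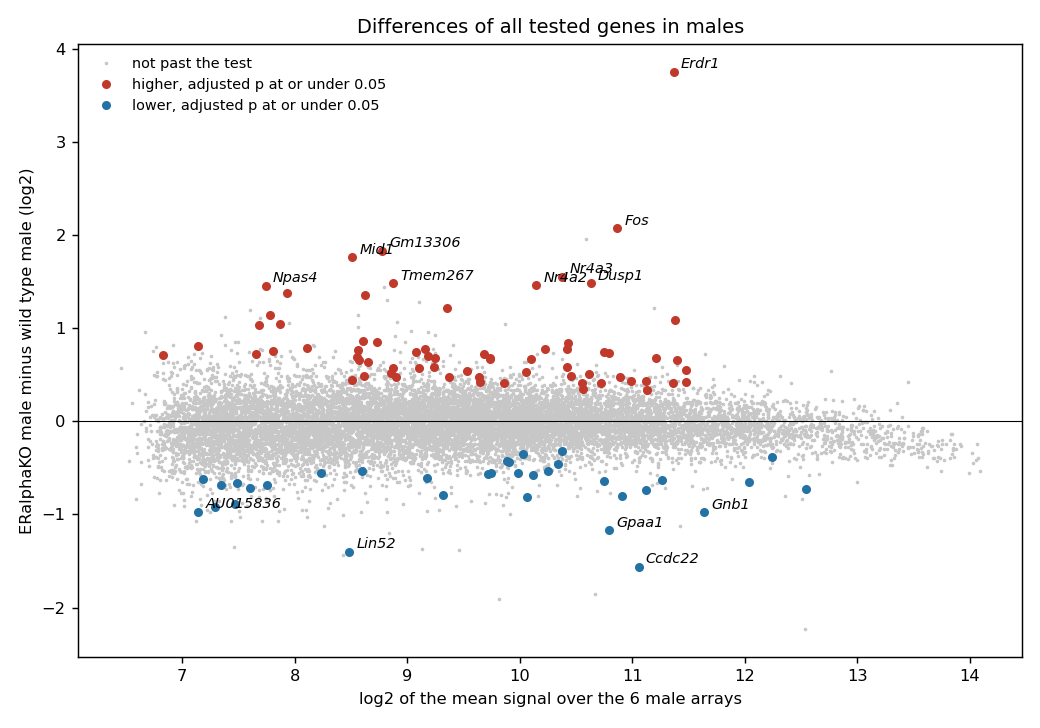
Log2 difference between ERalphaKO and wild type males (vertical axis) against the log2 mean signal of the 6 arrays (horizontal axis) for each of 13072 genes. The 68 called rises include Erdr1 at 3.75 and Fos at 2.07, and the 34 called falls include Ccdc22 at -1.56.

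The number of calls rested on every array. Without wild type replicate 1, 2 or 3 the fit called 15, 50 and 16 rises and 2, 20 and 3 falls. Without ERalphaKO replicate 1, 2 or 3 it called 14, 16 and 35 rises and 5, 7 and 17 falls. With both Pcp2-low arrays of the male groups and their counterparts in other groups left out, 9 rises and 8 falls were called, and 13 of the 102 genes kept their call. All 102 genes kept their direction in each of these fits, and 13 genes kept their call whichever of the 6 arrays was left out. These were Erdr1, Fos, Nr4a3, Tmem267, Dusp1, Egr2, Hspa1b, Tiparp, Tra2a, Zmym1 and Rbm12b1 among the rises and Ccdc22 and Nnt among the falls, Zmym1 and Rbm12b1 being named after their values were seen. In a fit to the 6 compared arrays alone, which leaves 4 residual degrees of freedom, 5 of these 13 passed, namely Erdr1, Fos, Dusp1, Tmem267 and Ccdc22. The other 8 had adjusted p-values from 0.0743 for Nnt and Zmym1 to 0.127 for Egr2. Without the Pcp2-low arrays 8 of the 13 passed, and Nr4a3 (adjusted p = 0.117), Egr2 (0.178), Tiparp (0.21), Zmym1 (0.103) and Rbm12b1 (0.0952) did not.

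The AP-1 factors are basic leucine zipper proteins that bind DNA as pairs, and Fos is the member most used as a mark of neuronal activity. Of 8 tested members, 3 rose and none fell, against 0.52% of all genes, and the median log2 difference of the 8 was 0.82 against -0.04 for all genes. This list and those below were chosen with earlier results of these data known. Their counts and medians therefore describe the lists and do not test them. Fos signals were 816, 466 and 799.9 in wild type and 3210, 2693 and 3216 in ERalphaKO males. The lowest ERalphaKO brain was thus far above the highest wild type brain, and the log2 difference was 2.07 ± 0.17 (SE, limma adjusted p = 5.78e-06).

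Fosb, a close relative whose truncated product accumulates on repeated stimulation, read 215.8, 126.5 and 204.6 against 399.1, 413.2 and 1008. The groups did not overlap, although ERalphaKO replicate 3 stood well above the other two, and the log2 difference was 1.35 ± 0.3 (SE, limma adjusted p = 0.0486). Atf4, a factor of the amino acid and endoplasmic reticulum stress response that pairs with AP-1 proteins, read 1811, 2039 and 1566 against 2927, 2716 and 3129, a difference of 0.68 ± 0.14 (adjusted p = 0.0363). Among members that did not pass, Fosl2 differed by 1.28 (adjusted p = 0.0577), Junb by 0.96 (adjusted p = 0.0773) and Jun by 0.2 (adjusted p = 0.372). Jund was lower, at -0.28 (adjusted p = 0.225). The Fosb call was lost whichever array was left out (adjusted p 0.0808 to 0.144) and that of Atf4 without any array other than wild type replicate 2 (0.0837 to 0.146).

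The Egr, Nr4a and Npas4 factors form the other large group of activity-induced regulators: the Egr proteins are zinc finger factors, the Nr4a proteins orphan nuclear receptors, and Npas4 a neuron-specific factor that responds to calcium entry. All 10 tested members were higher on average, 4 of them rose against 0.52% of all genes, none fell, and their median difference was 1.02. Nr4a3 read 763.9, 504.2 and 629.1 in wild type and 2328, 1260 and 2504 in ERalphaKO males, 1.55 ± 0.22 on the log2 scale (SE, limma adjusted p = 0.00596). ERalphaKO replicate 2 was the lowest of its group and still lay above every wild type brain.

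Egr2, which also directs myelination in the periphery, read 119.7, 76.83 and 112.3 against 285.9, 286.8 and 582.6, a difference of 1.38 ± 0.23 (adjusted p = 0.0115). Nr4a2, needed for midbrain dopamine neurons, read 759.1, 568.2 and 415.8 against 1980, 1576 and 1490, a difference of 1.46 ± 0.29 (adjusted p = 0.0362). Npas4 read 107, 29.21 and 112.6 against 219.5, 265.8 and 551.8, a difference of 1.45 ± 0.31 (adjusted p = 0.0455). None of the 3 overlapped between groups, and in Egr2 and Npas4 ERalphaKO replicate 3 was again the highest. The calls of Nr4a2 and Npas4 were lost whichever array was left out (adjusted p 0.0537 to 0.146 and 0.0743 to 0.117). Nr4a1 differed by 1.22 (adjusted p = 0.052), Egr4 by 0.82 (adjusted p = 0.0918), Egr3 by 0.55 (adjusted p = 0.344) and Egr1 by 0.54 with overlapping values (adjusted p = 0.203).

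**Figure D3:**
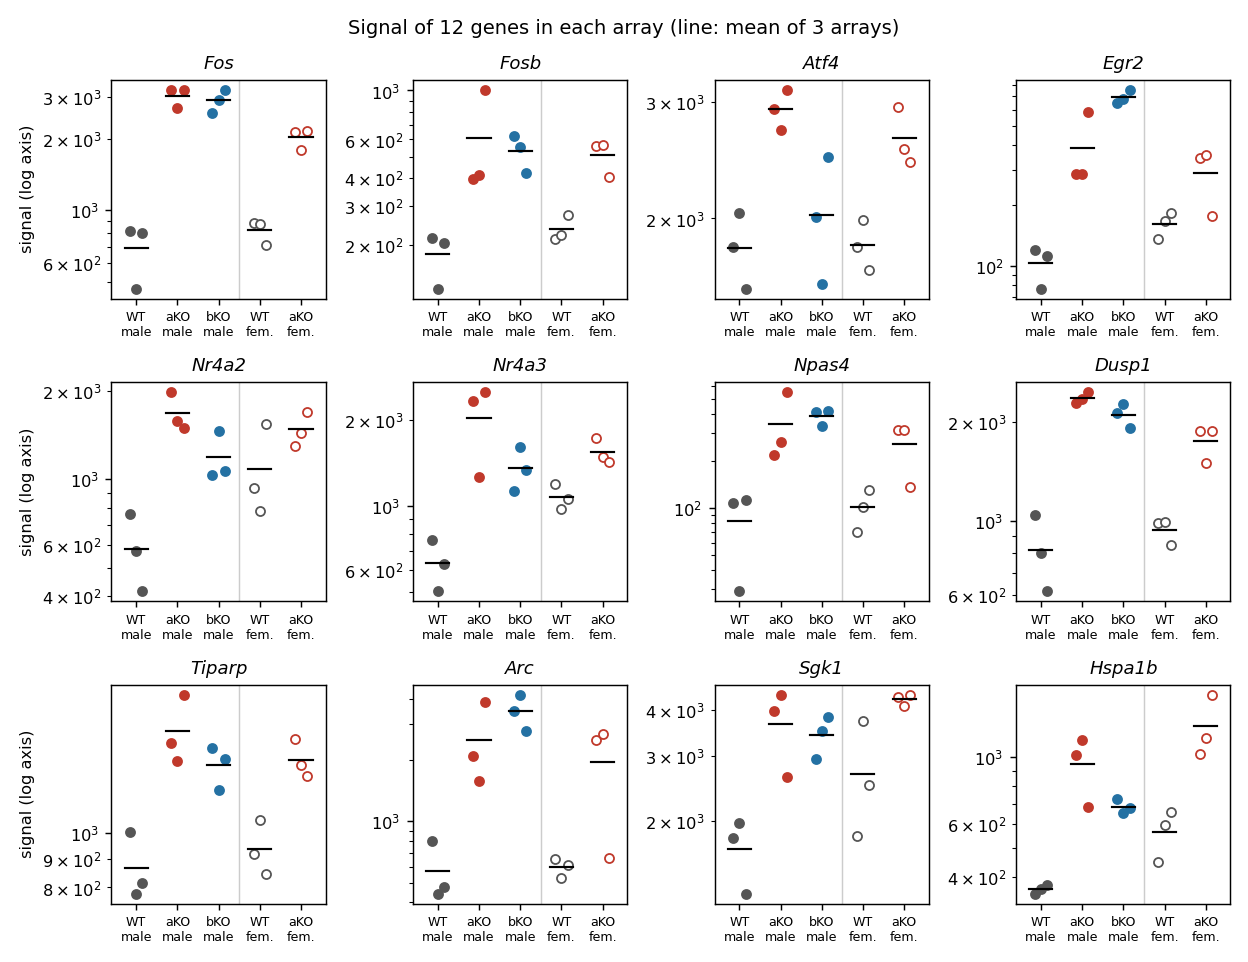
Signal (log axis) of 12 genes in each array of 5 groups, with a line at the mean of 3 arrays. WT is wild type, aKO is ERalphaKO, bKO is ERbetaKO, and open symbols are females. In the 3 wild type males Fos runs from 466 to 816 and in the 3 ERalphaKO males from 2693 to 3216.

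The DNA before the start sites of these genes is shown for members of both lists that rose. The 250 bases before the start are given for the 4 of the called members with the largest rises that have a single start in the RefSeq table of GRCm38.p6, 5′ to 3′ on the gene's strand. Capitals mark the core TGACG of the cyclic AMP response element, the site bound by the activity-regulated factor CREB, on either strand (read as CGTCA where it lies on the other).

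Fos: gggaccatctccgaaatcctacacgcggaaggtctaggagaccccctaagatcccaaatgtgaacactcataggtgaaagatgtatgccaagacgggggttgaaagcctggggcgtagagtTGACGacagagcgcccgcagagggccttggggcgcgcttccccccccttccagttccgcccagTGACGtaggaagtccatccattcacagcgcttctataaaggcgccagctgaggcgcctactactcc
Nr4a3: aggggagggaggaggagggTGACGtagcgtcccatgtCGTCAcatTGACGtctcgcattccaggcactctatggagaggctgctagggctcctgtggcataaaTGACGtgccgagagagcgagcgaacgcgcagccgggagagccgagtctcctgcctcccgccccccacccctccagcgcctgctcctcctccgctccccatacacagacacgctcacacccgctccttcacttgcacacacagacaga
Nr4a2: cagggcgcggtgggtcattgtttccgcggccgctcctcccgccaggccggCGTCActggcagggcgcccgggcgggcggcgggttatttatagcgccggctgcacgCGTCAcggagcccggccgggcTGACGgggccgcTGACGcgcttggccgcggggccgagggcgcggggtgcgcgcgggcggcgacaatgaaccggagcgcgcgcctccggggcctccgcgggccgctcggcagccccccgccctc
Npas4: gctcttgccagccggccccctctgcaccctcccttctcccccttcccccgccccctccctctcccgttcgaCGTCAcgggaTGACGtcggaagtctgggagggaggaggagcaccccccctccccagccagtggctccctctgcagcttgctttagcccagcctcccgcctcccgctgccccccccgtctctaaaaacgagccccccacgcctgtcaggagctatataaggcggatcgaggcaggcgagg

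The Fos window lies at chr12:85473640-85473889 on the plus strand, that of Nr4a3 at chr4:48045055-48045304 on the plus strand, that of Nr4a2 at chr2:57124004-57124253 on the minus strand and that of Npas4 at chr19:4989972-4990221 on the minus strand. The core occurs 2 times before Fos, 4 times before Nr4a3, 4 times before Nr4a2 and 2 times before Npas4, while 17.8% of all 32851 windows of that length hold at least 1. The full element TGACGTCA (in 1.55% of all windows), the AP-1 site TGANTCA (6.75%), the CArG box of serum response factor (1.47%) and the palindromic consensus estrogen response element (0.0639%) occur in none of the 4. The full element contains the core on both strands. Egr2 has 5 starts in the table, of which 3 have the core 2 times and 4 have 1 CArG box. The windows of the 3 with the core overlap and hold the same matches, CArG box included. A match is a description of letters, and none in a window says nothing of a factor's binding.

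The activity-induced effectors act at synapses or in growth signalling rather than on DNA. Of 21 tested, 1 rose, where 0.52% of all genes rose, and none fell, with a median of 0.23. Tiparp, an enzyme that attaches ADP-ribose to proteins, read 1003, 779.5 and 814.2 in wild type and 1452, 1345 and 1768 in ERalphaKO males, 0.77 ± 0.12 higher without overlap (SE, limma adjusted p = 0.00637). Arc, which controls the removal of glutamate receptors from synapses, read 799.7, 441.1 and 476.8 against 2084, 1581 and 3837. Its difference was 1.96 ± 0.44 and its groups did not overlap, but it was not called (adjusted p = 0.0512). Homer1, Bdnf and Nptx2 overlapped between groups, with differences of 0.23, 0.23 and 0.34 (adjusted p = 0.753, 0.546 and 0.685). Arc, Homer1, Bdnf and Nptx2 were named after their values were seen.

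Among 15 genes that restrain MAP kinase signalling, 1 rose against 0.52% of all genes, none fell, and the median was 0.32. Dusp1, a phosphatase that switches MAP kinases off, read 1044, 799 and 614.2 in wild type and 2269, 2336 and 2454 in ERalphaKO males. The ERalphaKO values lay close together, and the log2 difference was 1.48 ± 0.15 (SE, limma adjusted p = 7.99e-05). Of 18 genes induced by growth signals 4 rose, against 0.52% of all genes, and none fell, with a median of 0.41. These were Ier2 (0.86 ± 0.19, adjusted p = 0.0461), Klf4 (0.79 ± 0.15, adjusted p = 0.0298), Klf2 (0.76 ± 0.12, adjusted p = 0.0103) and Btg2 (0.68 ± 0.15, adjusted p = 0.0443), of which the Klf proteins are zinc finger factors and Btg2 a growth inhibitor. Klf2, for example, read 288.3, 249.4 and 250.2 against 514.3, 540.6 and 421.2. The Ier2, Klf4 and Btg2 calls were lost whichever array was left out (adjusted p 0.0761 to 0.165, 0.0546 to 0.137 and 0.0591 to 0.156), and that of Klf2 without wild type replicate 3 or ERalphaKO replicate 1 or 2 (0.0558 to 0.0651).

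Glucocorticoid-responsive genes, which report stress hormone in many tissues, had 2 rises among 17 tested, where 0.52% of all genes rose, no fall, and a median of 0.08. An unadjusted p under 0.05 was found for 5 of them, all 5 higher, next to 16.5% of all genes in either direction. Sgk1, a kinase that regulates ion channels, read 1796, 1965 and 1264 in wild type and 3971, 4405 and 2626 in ERalphaKO males, 1.09 ± 0.24 higher (SE, limma adjusted p = 0.0458). Ddit4, an inhibitor of mTOR signalling, read 1139, 1575 and 1236 against 2477, 2410 and 1802, a difference of 0.73 ± 0.14 (adjusted p = 0.0246). The classical members Fkbp5 and Tsc22d3 differed by 0.08 and -0.03, with overlapping values (adjusted p = 0.879 and 0.96). The Sgk1 call was lost without any array other than ERalphaKO replicate 3 (adjusted p 0.0558 to 0.164), and that of Ddit4 without wild type replicate 1 or 3 or ERalphaKO replicate 1 or 2 (0.101 to 0.117).

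Of 23 heat shock proteins and chaperones, which refold damaged proteins, 2 rose against 0.52% of all genes, none fell, and the median was 0.07. Hspa1b, an inducible Hsp70, read 351.9, 365.8 and 377.2 in wild type and 1016, 1142 and 681.5 in ERalphaKO males, 1.21 ± 0.18 higher (SE, limma adjusted p = 0.00637). Its near-identical neighbour Hspa1a read 292.1, 250.8 and 312.6 against 615.4, 579.1 and 495.6, a difference of 0.85 ± 0.14 (adjusted p = 0.0122), and probes may not separate the pair. The Hspa1a call was lost without wild type replicate 1 or ERalphaKO replicate 1 or 2 (adjusted p 0.0537 to 0.0808). Dnajb1, a partner of Hsp70, differed by 0.6 (adjusted p = 0.0577), and the constitutive Hspa8 by -0.14 (adjusted p = 0.636).

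Splicing factors, which select the exons of messenger RNAs, contributed 3 rises and no fall among 37 tested, where 0.52% of all genes rose, with a median of 0.01. Tra2a, a partner of the SR proteins, read 814.9, 811.9 and 858.8 in wild type and 1441, 1482 and 1154 in ERalphaKO males, 0.67 ± 0.09 higher (SE, limma adjusted p = 0.0052). Rbm39, a splicing coactivator also described as a coactivator of estrogen receptors, differed by 0.43 ± 0.08 (adjusted p = 0.0177). Srsf3, an SR protein, also differed by 0.43 ± 0.09 (adjusted p = 0.0443). Neither overlapped between groups. The Rbm39 call was lost without replicate 1 or 2 of either group (adjusted p 0.0596 to 0.0837) and that of Srsf3 without wild type replicate 1 or 3 or ERalphaKO replicate 1 or 2 (0.109 to 0.155). Of 20 circadian clock genes only Bhlhe40, a repressor of clock genes, rose (0.74 ± 0.16, adjusted p = 0.0458), against 0.52% of all genes, none fell, and the median was 0.01. Its call was lost whichever array was left out (adjusted p 0.0782 to 0.153).

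The largest rise of all was Erdr1, a gene at the edge of the pseudoautosomal region that the sex chromosomes share. It read 375.9, 293.9 and 266.2 in wild type and 4230, 5608 and 5093 in ERalphaKO males, 3.75 ± 0.25 on the log2 scale (SE, limma adjusted p = 9.32e-07), so that no ERalphaKO value came near a wild type value. Mid1, a microtubule-associated ubiquitin ligase that spans the pseudoautosomal boundary in laboratory mice, read 96.54, 123.8 and 103.4 against 168.9, 802.4 and 895.6. ERalphaKO replicate 1 lay far below the other two but above wild type, and the difference was 1.76 ± 0.39 (adjusted p = 0.0483). The Mid1 call was lost without any array other than ERalphaKO replicate 1 (adjusted p 0.0782 to 0.174). The third tested gene of this list did not pass.

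Among 15 tested genes that are known to vary between inbred strains or substrains, Erdr1 rose and Nnt fell. Among all genes 0.52% rose and 0.26% fell. Nnt, the mitochondrial transhydrogenase whose gene carries a deletion in the C57BL/6J substrain, read 1477, 1262 and 1406 in wild type and 726, 726.9 and 828.3 in ERalphaKO males, -0.81 ± 0.1 on the log2 scale (SE, limma adjusted p = 0.000818). The ERalphaKO values lay together, at a lower level. The labels call all animals C57BL/6 and name no substrain. Wdfy1 and Gabra2, named after their values were seen, differed by -1.38 and -0.8 without overlap (adjusted p = 0.0574 for each). Of the 15 genes 6 lay wholly below wild type and 1 wholly above, next to 14.5% and 9.08% of all genes. An unadjusted p under 0.05 was found for 5, of which 4 were lower and 1 higher, next to 16.5% of all genes. The 15 had a median of -0.18. Their summed signal, in which rises and falls offset each other, ran from 29725 to 33049 in wild type and from 31189 to 31501 in ERalphaKO males. A part of genetic background in the results was not tested.

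Around Esr1 on chromosome 10 DNA from a donor strain can stay linked to a targeted allele. The window of up to 100 annotated genes on either side held 136 genes, of which 42 were tested. None of the 42 rose or fell, and their median difference was 0.05. An unadjusted p under 0.05 was found for 5 of the 42, all 5 higher, as for 16.5% of all genes in either direction.

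Among the 14 largest called rises, 3 further genes lay outside the lists. Gm13306, a predicted gene of the chemokine Ccl27 family, read 175.3, 166.1 and 127 in wild type and 693.1, 592.7 and 882.4 in ERalphaKO males, a difference of 1.83 ± 0.33 (SE, limma adjusted p = 0.0177), and belongs to a cluster of near-identical copies that probes may not separate. Tmem267, a membrane protein of little known function, read 275, 192.5 and 183.5 against 830.4, 732.5 and 596.7, 1.48 ± 0.22 higher (adjusted p = 0.00637). Lekr1 read 124.4, 119.8 and 96.57 against 331.1, 308.6 and 341.2, 1.14 ± 0.22 higher (adjusted p = 0.0298). The groups were apart in all 3. The Lekr1 call was lost whichever array was left out (adjusted p 0.0569 to 0.138), and that of Gm13306 without any array other than wild type replicate 2 (0.0517 to 0.0953).

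The called falls had a median of -0.65, and the called rises one of 0.69. With array weights as an alternative, falls outnumbered rises, by 440 to 342. Ccdc22, a subunit of the COMMD complex that recycles membrane proteins from endosomes, had the largest called fall, from 3021, 3879 and 2758 in wild type to 937.6, 1072 and 1109 in ERalphaKO males, -1.56 ± 0.22 on the log2 scale (SE, limma adjusted p = 0.00465). Lin52, a subunit of the DREAM cell cycle repressor, read 468.6, 560.2 and 555.3 against 81.6, 115.3 and 368.4, a difference of -1.4 ± 0.31 (adjusted p = 0.0461), with ERalphaKO replicate 3 well above the other two. Gpaa1, which attaches lipid anchors to proteins, read 2263, 2456 and 2713 against 1279, 962.9 and 984.2, a difference of -1.17 ± 0.2 (adjusted p = 0.0123). No value overlapped in these 3 genes. The Lin52 call was lost without any array other than ERalphaKO replicate 3 (adjusted p 0.0854 to 0.161), and that of Gpaa1 without wild type replicate 1 or 3 or ERalphaKO replicate 2 (0.0501 to 0.078).

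Among the other large falls was Gnb1, a beta subunit of heterotrimeric G proteins, which read 3514, 4452 and 4787 in wild type and 1805, 2096 and 2457 in ERalphaKO males, -0.98 ± 0.22 (SE, limma adjusted p = 0.0461). Rph3a, rabphilin of synaptic vesicles, read 7382, 8839 and 6250 against 3944, 4412 and 5007, -0.73 ± 0.16 (adjusted p = 0.0455). Piezo2, a mechanically gated channel, read 263.4, 232 and 249 against 96.31, 88.99 and 130.5, -0.89 ± 0.15 (adjusted p = 0.0122). In each the highest ERalphaKO value stayed below the lowest wild type value. The Gnb1 and Rph3a calls were lost whichever array was left out (adjusted p 0.0655 to 0.156 and 0.0597 to 0.152), and that of Piezo2 without wild type replicate 1 or 3 or ERalphaKO replicate 1 or 2 (0.0591 to 0.0743).

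Adam15, a membrane metalloprotease, fell by 0.8 ± 0.12 on the log2 scale (SE, limma adjusted p = 0.00724), and Agpat4, an enzyme of phospholipid synthesis, by 0.74 ± 0.12 (adjusted p = 0.0103). Sftpb, which encodes a lung surfactant protein, fell by 0.79 ± 0.15 (adjusted p = 0.0208) and the melanocyte transporter gene Slc45a2 by 0.72 ± 0.13 (adjusted p = 0.0208). The transcripts AU015836, 4933417D19Rik and Gm8479 fell by 0.97, 0.92 and 0.69 (adjusted p = 0.0362, 0.0461 and 0.0491) and had signals of at most 250 in every brain. Of these 7 genes Adam15 lost its call only without wild type replicate 1 (adjusted p = 0.0501) and Agpat4 without wild type replicate 1 or 3 (0.0546 and 0.0585). Sftpb lost it without replicate 1 or 3 of either group (0.0628 to 0.114), Slc45a2 without any array other than wild type replicate 2 (0.0652 to 0.0919) and AU015836 without any other than ERalphaKO replicate 2 (0.0537 to 0.144). The calls of 4933417D19Rik and Gm8479 were lost whichever array was left out (0.0683 to 0.153 and 0.0657 to 0.156).

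The lists of estrogen-responsive genes and of steroid receptors and coregulators held no call, Rbm39 being listed with the splicing factors. Of 22 tested genes known to respond to estrogen, in brain or in other tissues, none rose or fell at an adjusted p of 0.05 or less. An unadjusted p under 0.05 was found for 2 of the 22, next to 16.5% of all genes. The median difference of the 22 was -0.05, next to -0.04 for all genes. Tff1, a secreted peptide induced by estrogen in breast cells, read 3249, 3500 and 3965 in wild type and 2632, 2495 and 2679 in ERalphaKO males, -0.44 ± 0.17 (SE, limma adjusted p = 0.195). Greb1, an estrogen receptor cofactor, differed by -0.62 ± 0.28 (adjusted p = 0.276). Of 16 steroid receptors and coregulators likewise none was called, with 3 at an unadjusted p under 0.05, next to 16.5% of all genes. The coregulator Pelp1 differed by -0.29 ± 0.08 (adjusted p = 0.106) and the orphan receptor Esrrb by -0.59 ± 0.18 (adjusted p = 0.118), both without overlap. Pgr, the progesterone receptor that estrogen induces in the hypothalamus, read 1063, 955.8 and 1004 against 1024, 1012 and 1103, a difference of 0.05 ± 0.16 (adjusted p = 0.91).

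Neither neurosteroid enzymes nor hypothalamic peptides were called. Of 15 genes of neurosteroid synthesis none passed, and none had an unadjusted p under 0.05, where 16.5% of all genes had one. Star, the cholesterol carrier of steroid synthesis, differed by -0.27 ± 0.15 (SE, limma adjusted p = 0.381) and its relative Stard3 by -0.18 ± 0.1 (adjusted p = 0.384). None of 13 hypothalamic peptide genes passed, and their summed signal ranged from 13674 to 27830 in wild type and from 12157 to 23464 in ERalphaKO males. The arousal peptide gene Hcrt read 375.5, 154.4 and 857.3 against 149.4, 417.2 and 122.2, so that its brains spread widely within each group. Gal, the galanin gene, differed by -0.58 ± 0.36 (adjusted p = 0.447). Of 8 pituitary genes none passed, at summed signals of 5285 to 15334 and of 2817 to 40316, and Chga and Gal3st2 differed by -0.33 and -0.46 (adjusted p = 0.184 and 0.232).

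Among 18 microglia and complement genes only P2ry13, a nucleotide receptor of microglia, fell, against 0.26% of all genes, and none rose. It read 482.3, 469.5 and 455.4 in wild type and 283.6, 282 and 351.7 in ERalphaKO males, -0.53 ± 0.11 (SE, limma adjusted p = 0.0443), a call lost without any array other than ERalphaKO replicate 3 (0.0782 to 0.151). Of the 18 genes 5 had an unadjusted p under 0.05, next to 16.5% of all genes. On average 16 of the 18 were lower, and the median of the 18 was -0.27, next to -0.04 for all genes. The summed signal of the 18 was 26139 to 38336 in wild type and 24488 to 29124 in ERalphaKO males, overlapping ranges.

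No gene was called in the lists of other cell types and regions. Of 17 astrocyte genes 13 were lower, with a median of -0.16 that quantile normalization left at -0.04, and Fgfr3, a growth factor receptor, differed by -0.54 ± 0.14 (SE, limma adjusted p = 0.0817) and the amino acid transporter gene Slc7a10 by -0.41 (adjusted p = 0.171). All 16 striatal genes were lower, with a median of -0.42, next to -0.04 for all genes, but their brains overlapped. Penk, the enkephalin gene, read 3959, 6970 and 11120 in wild type and 1669, 4898 and 6382 in ERalphaKO males (-0.84 ± 0.53, adjusted p = 0.454), and Rasd2 differed by -0.7 (adjusted p = 0.344). The summed striatal signal was 24968 to 54580 in wild type and 13672 to 39099 in ERalphaKO males. Olfactory bulb genes had a median of 0.5, with 9 of 12 higher. Dcx, a gene of migrating young neurons, read 537.5, 334.3 and 651.9 against 669.7, 658.1 and 2742 (1.04 ± 0.44, adjusted p = 0.246), with ERalphaKO replicate 3 far above the rest. Lbhd2 of the same list was lower, at -0.77 ± 0.22 (adjusted p = 0.1).

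For Purkinje and cerebellar granule cell genes the medians of 0.25 and 0.17 stood beside summed signals that ranged from 9525 to 65987 over the 6 male brains for the 13 Purkinje genes. Foxp4 and Gng13 of the former list differed by -0.36 (adjusted p = 0.103) and 0.25 (adjusted p = 0.814), and Eomes and Reln of the latter by 0.97 (adjusted p = 0.294) and 0.42 (adjusted p = 0.422). Choroid plexus sums ran from 2334 to 22315 in wild type and from 4322 to 18590 in ERalphaKO males, and Clic6 and Kcne2 differed by -0.32 and -0.56 (adjusted p = 0.245 and 0.597). With a cerebellar score as a covariate all 102 calls were kept, and 168 rises and 152 falls were called in all, while 13 of the 102 were kept without the Pcp2-low arrays.

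In the remaining cell type lists the values with the smallest p were as follows. The thalamic genes Prkcd and Amotl1 differed by -0.72 and -0.26 (adjusted p = 0.406 and 0.568), and the excitatory neuron genes Cux1 and Rasgrf2 by -0.29 and 0.41 (adjusted p = 0.283 and 0.315). The interneuron genes Htr3a, a serotonin-gated channel, and Gad2, which makes GABA, differed by -0.39 and -0.44 (adjusted p = 0.0994 and 0.105). Myelin genes had 12 of 14 members lower, with Cnp at -0.36 and Mbp at -0.34 (adjusted p = 0.325 and 0.356). The oligodendrocyte precursor genes Sox10 and Tnr differed by -0.37 and 0.31 (adjusted p = 0.252 and 0.312), the endothelial genes Itm2a and Vwf by -0.4 and 0.54 (adjusted p = 0.0817 and 0.127), and the meningeal genes Bgn and Ptgds by 0.36 and -0.31 (adjusted p = 0.319 and 0.395).

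Monoamine genes gave Dbh at 0.45 and Th at 0.39 (limma adjusted p = 0.291 and 0.679). Of 4 tested blood cell genes, Alas2, the heme synthesis enzyme of red cell precursors, read 191.1, 169.6 and 230.4 in wild type and 1370, 500.6 and 255.9 in ERalphaKO males (1.3 ± 0.4, limma adjusted p = 0.126). Cd3e, of T cells, differed by -1.07 ± 0.33 (adjusted p = 0.121). The Y-linked genes Kdm5d, Uty and Uba1y differed by 0.21, 0.25 and -0.19 and Xist by -0.37 (adjusted p = 0.656, 0.643, 0.722 and 0.0928), and none was called. The Uba1y probe set averaged 359.3 in wild type females and 287.8 in wild type males, so its value cannot be read as that of a Y-linked transcript.

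Receptor, synapse and metabolic lists held no call either. The GABA-A receptor subunit Gabra2 read 1464, 1147 and 1837 in wild type and 787.2, 691.6 and 963 in ERalphaKO males, -0.8 ± 0.19 without overlap but short of the threshold (limma adjusted p = 0.0574). Gabrb1 of the same family differed by 0.47 (adjusted p = 0.185), and the glutamate receptor subunits Grin2d and Grik1 by -0.37 and 0.5 (adjusted p = 0.173 and 0.176). Of 20 synaptic vesicle and release genes 15 were lower, with a median of -0.16 that quantile normalization left at -0.04, and with Cplx1, a complexin of the release machinery, at -0.47 ± 0.11 (adjusted p = 0.0626) and Syn1 at -0.41 ± 0.14 (adjusted p = 0.151).

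Of 49 oxidative phosphorylation genes 35 were lower, with a median of -0.17, of which quantile normalization left -0.03. Cox8a, a cytochrome oxidase subunit, differed by -0.47 ± 0.16 (SE, limma adjusted p = 0.16) and Sdhc, of succinate dehydrogenase, by 0.3 ± 0.1 (adjusted p = 0.153). The median of 28 cytosolic ribosomal proteins was -0.08 and turned to 0.04 with quantile normalization, and Rps27 and Rps24 differed by -1.2 and -0.39 (adjusted p = 0.117 and 0.168). Of 23 cholesterol synthesis genes 17 were lower, with Pmvk, mevalonate phosphate kinase, at -0.54 ± 0.13 (adjusted p = 0.0626) and the regulator Srebf1 at -0.31 ± 0.13 (adjusted p = 0.244).

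**Figure D4:**
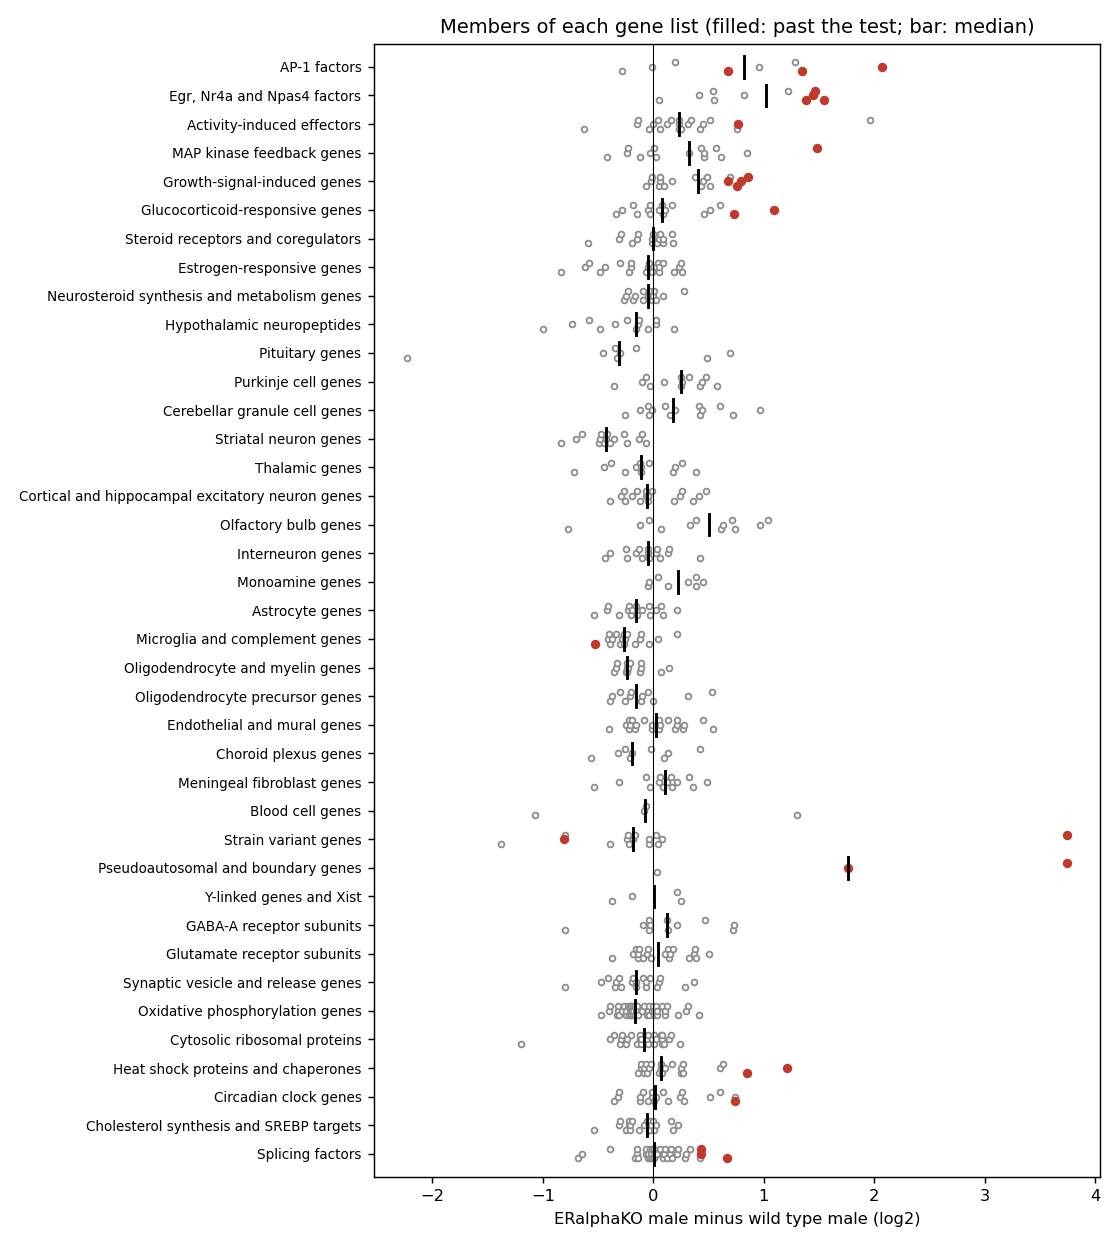
Log2 difference between ERalphaKO and wild type males of every tested member of each gene list, filled where past the test, with a bar at the list's median. The medians of the AP-1 list, at 0.82, and of the Egr, Nr4a and Npas4 list, at 1.02, lie to the right of 0, while that of the estrogen-responsive list is -0.05.

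The female brains, compared with their own wild type controls on other arrays, gave 47 calls (0.36%), 36 rises and 11 falls. Of the 68 genes that rose in males 67 were also higher in ERalphaKO females, and of the 34 that fell 29 were also lower, while 65.6% of all genes had the same sign in both sexes. The calls shared by direction were 12 rises and 2 falls, which is 13.7% of the male and 29.8% of the female calls. The male rises had a median of 0.69 in males and 0.42 in females, and the male falls -0.65 and -0.29. Since the genes were chosen on the male arrays, a larger male value describes that choice.

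Fos read 887.6, 871.9 and 713 in wild type females and 2140, 1797 and 2153 in ERalphaKO females, 1.24 ± 0.17 higher (SE, limma adjusted p = 0.00571). Erdr1 rose by 3.78 ± 0.25 in females (adjusted p = 8.15e-07), Mid1 by 2.68 ± 0.39 (adjusted p = 0.00906), Hspa1b by 1.07 ± 0.18 (adjusted p = 0.0224) and Dusp1 by 0.84 ± 0.15 (adjusted p = 0.0224). Nnt fell in females too, from 1394, 1497 and 1500 to 807.7, 894.8 and 901.3, a difference of -0.71 ± 0.1 on the log2 scale (adjusted p = 0.00571). Gm13306 rose by 1.7 in females (adjusted p = 0.0332), Rbm12b1 by 0.89 (adjusted p = 0.0228), Zmym1 by 0.61 (adjusted p = 0.0332) and Tra2a by 0.52 (adjusted p = 0.0299). The other shared rises were C030023E24Rik, Ythdf3 and Ncbp2, and the other shared fall was Eif5, which are named here to complete the count. Among male calls that did not pass in females, Nr4a3 differed there by 0.5 (adjusted p = 0.318), Ccdc22 by -0.51 (adjusted p = 0.287) and Gpaa1 by 0.04 (adjusted p = 0.965).

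The difference between the sexes was itself tested and reached an adjusted p of 0.05 or less in 0 genes (0.0%) with limma, with 673 genes (5.15%) at an unadjusted p under 0.05 and a smallest adjusted p of 0.855. The smallest p belonged to Hmgxb4, which was -0.6 in males and 0.39 in females, Cetn1, at -0.67 and 0.41, and Tmem129, at -0.27 and 0.37. Without wild type male replicate 2 the count was 3. For Fos the male difference exceeded the female one by 0.83 ± 0.23 (adjusted p = 0.855), so no gene was shown to respond differently in the sexes.

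**Figure D5:**
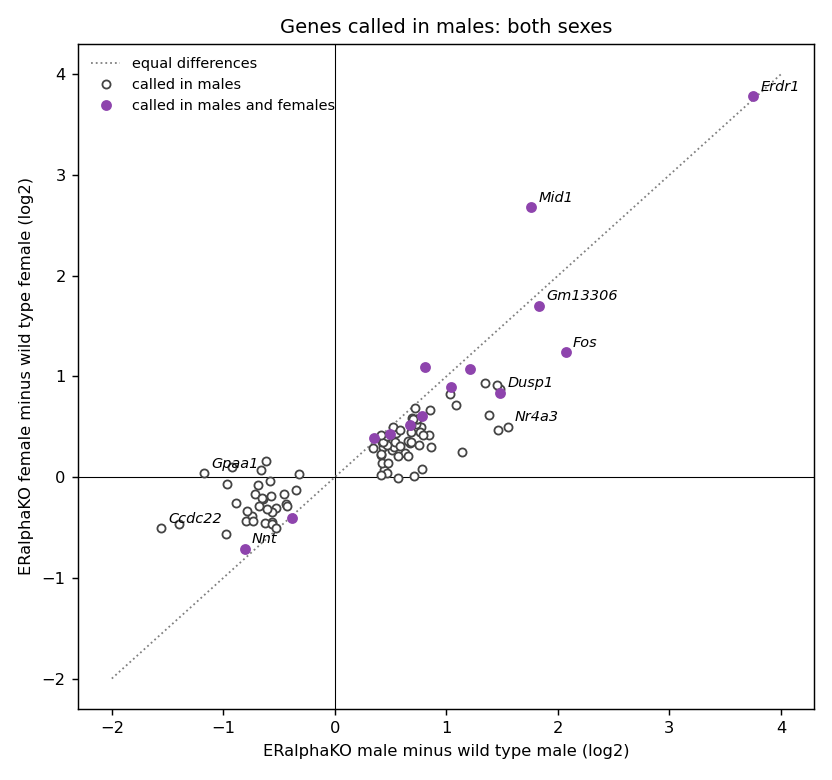
Log2 difference between ERalphaKO and wild type in females (vertical axis) against that in males (horizontal axis) for the 102 genes called in males, filled where also called in females, with a dotted line of equal differences. Erdr1 lies at 3.75 and 3.78, Fos at 2.07 and 1.24.

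Set against ERbetaKO males, the ERalphaKO males differed in 1034 genes (7.91%). Of the 102 genes called against wild type, 50 also passed here on the same side, 30 higher and 20 lower. The 2 comparisons share the ERalphaKO arrays, so the values are given side by side. Erdr1 was 2.99 ± 0.25 above ERbetaKO males (SE, limma adjusted p = 1.39e-05), whose signals were 486.6, 534 and 702, and Nnt differed by -0.76 ± 0.1 (adjusted p = 0.00184), their signals being 1343, 1346 and 1306. Mid1, Tmem267, Lekr1 and Mtm1, a lipid phosphatase gene, were higher by 1.53, 1.03, 0.88 and 0.82 (adjusted p = 0.029, 0.016, 0.0273 and 0.00765). Mtm1 had differed from wild type by 0.72 (adjusted p = 0.0373), a call lost without any array other than wild type replicate 2 (0.0745 to 0.144). Lin52, 4933417D19Rik, Gpaa1, AU015836 and Slc45a2 were lower, with differences of -1.5, -1.16, -1.15, -1.14 and -1.07 (adjusted p = 0.0132, 0.00666, 0.00704, 0.00666 and 0.00184).

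Of the 13 genes called against wild type in the 5 lists of AP-1 factors, Egr, Nr4a and Npas4 factors, effectors, MAP kinase feedback genes and growth-signal-induced genes, 1 was also higher than in ERbetaKO males, 1 was lower and 11 did not pass, next to 50 of the 102 on the same side. The one that was higher was Atf4, at 2008, 1595 and 2472 in ERbetaKO males (0.54 ± 0.14, limma adjusted p = 0.0295). The 11 ran from -0.22 for Npas4 to 0.51 for Nr4a3. In 11 of the 13 genes the ERbetaKO males lay wholly above the wild type males. The 13 were called with these same wild type arrays, a choice that favours low wild type values. The share of all genes separated in this way was not counted, so nothing is concluded from that count. Fosb, Nr4a2 and Tiparp differed from ERbetaKO males by 0.07, 0.49 and 0.19 (adjusted p = 0.909, 0.304 and 0.326). Ier2, Btg2, Klf2 and Klf4 differed by 0.27, 0.03, 0.39 and 0.47 (adjusted p = 0.372, 0.926, 0.0618 and 0.0656), and Npas4 had an adjusted p of 0.682. Fos read 2583, 2911 and 3226 in ERbetaKO males, which differed from ERalphaKO males by 0.06 ± 0.17 (limma adjusted p = 0.835) and lay above all 3 wild type males. Dusp1 read 2118, 2259 and 1919 in ERbetaKO males (0.16 ± 0.15, adjusted p = 0.499), and Arc, not called against wild type, 3471, 4182 and 2788 (-0.55 ± 0.44, adjusted p = 0.452). Egr2 was higher in ERbetaKO males, at 644, 681.2 and 753.9, with an ERalphaKO minus ERbetaKO difference of -0.81 ± 0.23 (adjusted p = 0.0415), the only gene of the 102 that passed on the opposite side. Nr4a3 was intermediate, at 1129, 1606 and 1338 in ERbetaKO males (0.51 ± 0.22, adjusted p = 0.158). For Fos, Dusp1, Arc, Egr2 and Nr4a3 the wild type males were thus the low group of the 3 male groups. These genes were named from values of the same wild type arrays.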

How the data were processed

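Whole brain RNA was hybridised to Affymetrix mouse arrays. The deposited file gives 1 intensity per probe set on a linear scale, which the authors had scaled so that the 2% trimmed mean of every array is 500, and the submitters' processing notes name MAS5. Detection calls were not used here. Of 45101 probe sets 64 controls were left out, and 34945 of the others had 1 gene symbol, in 34741 cases updated through RefSeq (GRCm38.p6). Promoter sequences are RefSeq's, and their build is that of the table, not of the array.

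The probe set with the highest mean over the 18 arrays stood for each gene. Values were taken as log2(signal + 63.63), the 25th percentile of all values being the constant, and genes below the 40th percentile (7.58) were left out. All 18 arrays were fitted with limma 3.58.1 in R 4.3.3 as 6 group means with an intensity trend, on 12 residual degrees of freedom, and p-values were adjusted by Benjamini-Hochberg over 13072 genes. All adjusted p-values for genes are limma's. The fit was also run on simulated arrays with independent noise for each gene. Those arrays lack the differences in region markers seen between the brains, so that run says nothing about their effect. Precision is limited by having 3 arrays a group.

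The comparison, its members and the gene lists were chosen with earlier results of these data known. Genes were named by rule: the receptors and sex-linked genes, the 14 largest called rises and falls, up to 4 called members of each list or else the 2 with the smallest p, the 3 smallest p of the interaction, and up to 5 genes each way that also passed against ERbetaKO males. Some other names are marked as chosen after their values were seen. Fosl2, Junb, Jun, Jund, Nr4a1, Egr4, Egr3, Egr1, Fkbp5, Tsc22d3, Dnajb1, Hspa8 and Pgr were not picked by these rules either. Their values describe single genes and do not stand for their lists. The labels do not say that replicate numbers pair the samples, so the main fit used no pairing. The deviations of same-numbered male arrays correlated at 0.046, 0.204 and 0.413. Differently numbered arrays were not correlated for comparison, so these values do not settle whether the numbers pair samples. Alternatives tried were other pseudocounts, scalings and filters, all probe sets or their mean, no trend, array weights, fewer arrays, a replicate block, and a cerebellar score (mean of cerebellar genes) or the Actb ratio as a covariate. Fits to the 9 male arrays were added after seeing the data. Figures were drawn with matplotlib 3.10.9.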

Additional observations from a re-analysis of the deposited data

How the results depend on the processing

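The 102 male calls kept their direction under the alternatives run, except 1 gene when probe sets were averaged and with 84 of the 102 measured when the filter was at the 60th percentile, but their number moved. Against 68 rises and 34 falls, median centring gave 33 and 18, all probe sets 212 and 113, array weights 342 and 440, only the groups compared 7 and 3, the 12 wild type and ERalphaKO arrays 39 and 25, the cerebellar score as a covariate 168 and 152, the fits without Pcp2-low arrays 9 and 8, and the 9 male arrays, added after seeing the data, 24 and 18. With the replicate number as a block, a pairing that the labels do not give, 42 rises and 19 falls were called. Leaving out 1 array gave 14 to 50 rises and 2 to 20 falls. The mean over probe sets gave 53 rises and 24 falls and kept 43 of the 102 calls. Median centring kept 48 of the 102, quantile normalization 69 and only the groups compared 9, while array weights kept all 102.

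The interaction called 1 gene with no filter and 0 to 3 with 1 array left out. ERalphaKO against ERbetaKO in males, 1034 in the report, gave 629 with the filter at the 60th percentile, 1655 with all probe sets, 4052 with array weights, 448 with the Actb ratio as a covariate, 485 without Pcp2-low arrays and 223 to 1066 with 1 array left out. The 47 female calls became 97 with quantile normalization, 28 with median centring, 166 with all probe sets, 29 with their mean, 107 with array weights, 10 with 12 arrays, 26 with the replicate block, 195 with the cerebellar score, 10 with the Actb ratio, 4 without Pcp2-low arrays and 21 to 47 with 1 male array left out.

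Averaging probe sets turned the sign of Esr1 (0.41), Kdm5d (-0.05), Star (0.04), Cux1 (0.16) and Sdhc (-0.04), quantile normalization that of Mbp (0.03), array weights that of Th (-0.06) and leaving out Pcp2-low arrays that of Hcrt (0.05). With 1 array left out Gng13 ran from -0.04 to 0.82, Th from -0.19 to 0.9 and Kcne2 from -1.06 to 0.01. None of these genes was called, and the cause was not tested. Of 50 called genes with another tested probe set, 24 had one with the same direction and 1 had one with the opposite direction at an unadjusted p under 0.05.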
